A study of Homo sapiens with 7 samples.

Results

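The genes described are 10 components of NF-kB signalling: the subunits RELA, REL, RELB, NFKB1 and NFKB2, and the feedback regulators NFKBIA, NFKBIE, NFKBIZ, TNFAIP3 and BIRC3. They were chosen by gene symbol, all 10 were found among 14535 genes, and all 10 passed the filter on low counts that left 11230 genes for testing. RNA came from A549 cells, a line of lung adenocarcinoma epithelium, sorted as positive for β-galactosidase staining, a common marker of senescence, 6 days after treatment. In 3 libraries (1 to 3) the treatment was doxorubicin, which poisons topoisomerase II and breaks DNA, given at 100 nM over 24 h. In 4 libraries (4 to 7) it was 24 h of cyclic stretch at 15% elongation and 15 cycles per min. No untreated cells were analysed here, so a level higher after doxorubicin is the same statement as a level lower after stretch. Both groups are a single cancer cell line, and nothing in the labels tells whether libraries of a group came from separate cultures. The p-values therefore measure library-to-library spread only, and that spread may be technical in part or whole. Levels come from bulk RNA, in which a change in how many cells express a gene and a change in RNA per cell cannot be told apart.

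NF-kB is a family of transcription factors that work as dimers. RELA, REL and RELB carry the domains that activate transcription, whereas NFKB1 and NFKB2 are made as the precursors p105 and p100 and are processed to the DNA-binding subunits p50 and p52. In resting cells the dimers are held in the cytoplasm by inhibitors of the IkB family, among them NFKBIA (IkB alpha) and NFKBIE (IkB epsilon), which are degraded once the IkB kinase complex marks them. In an alternative route, processing of p100 releases dimers of RELB and p52. Several of the regulators are themselves targets of NF-kB and so close a feedback loop, and in senescent cells the pathway is known for driving inflammatory secretion.

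Total counts were between 2611766 and 4644650 in the doxorubicin libraries and between 5636494 and 7419798 in the stretch libraries. Doxorubicin libraries 1 and 2 stood apart, with 10.9% and 21.4% of the table's rows at a count of 0 against 4.17% to 5.10% in the other 5 libraries. Stretch library 4 correlated less with the other 3 stretch libraries (Pearson's r of log levels across genes, which are no independent replicates, 0.939 to 0.946) than these did with each other (0.973 to 0.978). Doxorubicin library 3 was nearer to every stretch library (0.915 to 0.941, highest with library 4) than to doxorubicin libraries 1 and 2 (0.882 and 0.754). EIF4A2, a translation factor, took 10.8% to 30.6% of the counts of a doxorubicin library and 1.67% to 2.87% of those of a stretch library, and its part in the results was not tested beyond the setting without it. For results that move with 1 of these libraries, values without it are given. Of the epithelial markers, KRT8 and KRT18, keratins of simple epithelia, were at 340 CPM (counts scaled to the size of the library) in the lowest case, and the sum of the 6 epithelial markers was 1938 to 3485 CPM after doxorubicin and 954 to 1273 CPM after stretch. EPCAM, another of them, was at 0.86 to 4.54 CPM after doxorubicin and 10.2 to 14.6 CPM after stretch. The 4 immune markers analysed summed to 100.2 to 139 CPM against 57.6 to 61.0 CPM, of which the lysosomal protein CD68 gave 46.7 to 104 CPM and 16.7 to 20.0 CPM, and CD79A, of B cells, gave 0 in 4 libraries. The 3 fibroblast markers summed to 7.94 to 18.2 CPM against 7.24 to 9.75 CPM, and CDH5, the endothelial marker analysed, was at 0 in 4 libraries and at most 0.96 CPM. The part of these markers in the results was not tested.

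RELB was the only member that passed the test between the groups, and it was higher after doxorubicin. After doxorubicin its level was 38.1, 95.1 and 48.6 CPM in the order of the libraries, and after stretch it was 21.9, 18.5, 18.1 and 16.2 CPM. All 3 doxorubicin libraries lay above all 4 stretch libraries, and the highest was the shallow library 2. The means were 60.6 ± 30.3 CPM (SD, n = 3) and 18.7 ± 2.36 CPM (SD, n = 4), a 3.21-fold difference (log2 fold change, stretch minus doxorubicin, -1.68, SE 0.35, 95% interval -2.45 to -0.91). The quasi-likelihood test of edgeR gave a Benjamini-Hochberg adjusted p of 0.0361, taken over all genes tested, and 0.05 was the threshold for a call here and below. Of all genes tested, 2.32% passed in either direction, 1.97% on the doxorubicin side and 0.356% on the stretch side, and 1 member of 10 passed. RELB lies on chromosome 19, from 45001430 to 45038198 (build GRCh38, GENCODE release 29).

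The direction of RELB held in each of 18 alternative analyses, with log2 fold changes from -1.92 to -0.80, but the call did not. It passed in 11 of the 18, with adjusted p from 0.000178 to 0.204. The call was lost without doxorubicin library 1 or without any 1 of stretch libraries 4 to 7 (log2 fold changes -1.92 and -1.77 to -1.63, adjusted p 0.0785 to 0.169 by edgeR), and with doxorubicin represented by library 3 alone (-1.36, adjusted p 0.0585 by edgeR). In that setting the spread comes from the stretch libraries, and the lone doxorubicin library is assumed to vary as they do. Scaling by library totals alone also ended it (-0.80, adjusted p 0.204 by edgeR). Without doxorubicin library 2, its highest, RELB kept the call at -1.21. The share of all genes that passed varied widely between these settings. Where RELB passed, the share was 2.26% with RLE factors, 1.84% with upper-quartile factors, 1.96% without a filter on low counts, 1.91% with a mean of at least 10 CPM, 10% with DESeq2 and 1.66% with limma-voom. It was 47.2% with limma-voom and library quality weights, 2.47% without doxorubicin library 2, 32.2% without doxorubicin library 3 and 2.23% without the 2 abundant genes EIF4A2 and TAF1D. In a setting chosen after seeing the data, without doxorubicin libraries 1 and 2 and stretch library 4, it was 21.1%. Where RELB did not pass, the share was 0.116% with library totals alone, 0.197% without doxorubicin library 1, 0.359% without stretch library 4, 0.146% without stretch library 5, 0.109% without stretch library 6 or 7, and 0.802% with doxorubicin library 3 alone. The settings that lost RELB were thus the 7 in which under 1% of all genes passed.

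**Figure D1:**
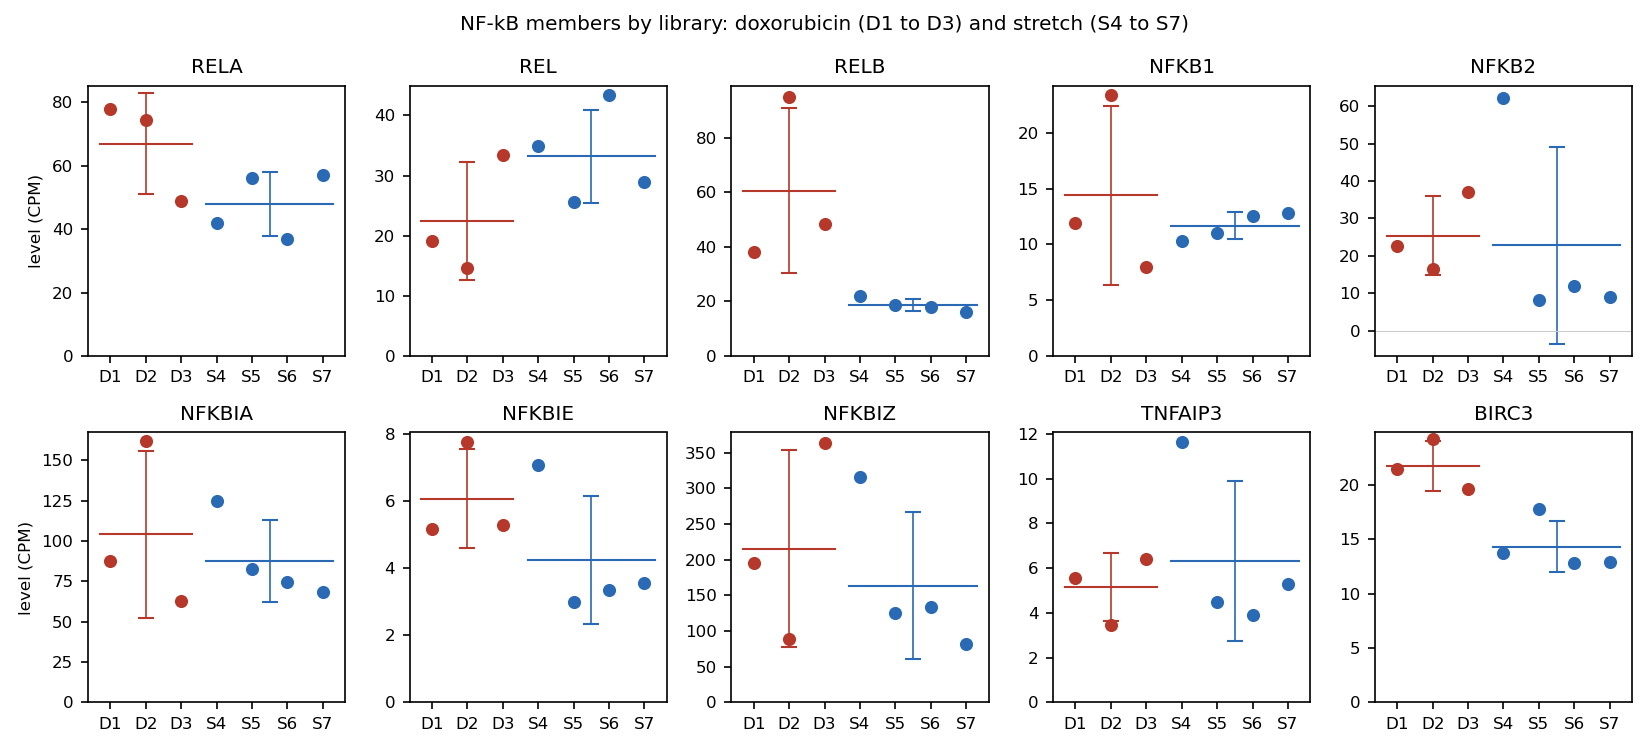
Level of each member in every library (CPM, linear axis), with doxorubicin libraries D1 to D3 in red and stretch libraries S4 to S7 in blue. Horizontal lines are group means and bars the SD. RELB and BIRC3 are the 2 members whose groups do not overlap, and NFKB2 is at 62.1 CPM in S4 against 8.13 to 11.9 CPM in S5 to S7.

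The other subunits with an activation domain did not pass. RELA, the main activating subunit of the canonical dimer, stood at 77.8, 74.4 and 48.8 CPM after doxorubicin and at 41.9, 56.1, 36.9 and 57.0 CPM after stretch. Doxorubicin libraries 1 and 2 were above every stretch library and library 3 lay within the stretch range, so the groups overlapped. The log2 fold change was -0.48 (95% interval -1.15 to 0.20, adjusted p 0.362 by edgeR), and -0.01 with doxorubicin library 3 alone. It passed in 1 of 18 alternatives, limma-voom with quality weights (-0.59, adjusted p 0.0248), over which the adjusted p ran from 0.0248 to 0.990. REL, which codes c-Rel, stood at 19.1, 14.7 and 33.5 CPM after doxorubicin and at 34.8, 25.6, 43.4 and 28.9 CPM after stretch. Here doxorubicin libraries 1 and 2 were the lowest of all 7 and library 3 again lay within the stretch range. Its log2 fold change was 0.53 (95% interval -0.26 to 1.32, adjusted p 0.385 by edgeR). REL passed on the stretch side without doxorubicin library 3, at 0.98 and an adjusted p of 0.0472 by edgeR, a setting in which 32.2% of all genes tested passed. Over its 18 alternatives the adjusted p ran from 0.0472 to 0.996.

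NFKB1, the precursor of p50, stood at 11.9, 23.3 and 7.94 CPM after doxorubicin and at 10.3, 11.02, 12.5 and 12.8 CPM after stretch. Its highest and its lowest level were both in doxorubicin libraries, and the stretch libraries were close together. Its log2 fold change was -0.23 (95% interval -1.09 to 0.64, adjusted p 0.755 by edgeR). It turned to 0.26 without doxorubicin library 2 and to 0.57 with doxorubicin library 3 alone. NFKB1 lies on chromosome 4 (102501329 to 102617302), RELA on chromosome 11 (65653596 to 65663094) and REL on chromosome 2 (60881521 to 60931610).

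NFKB2, the precursor of p52 and the partner of RELB (chromosome 10, 102394110 to 102402529), varied more between libraries of a group than between the groups. After doxorubicin it stood at 22.6, 16.4 and 37.0 CPM. After stretch it stood at 62.1, 8.13, 11.9 and 9.14 CPM, from counts of 465, 76, 110 and 85. Stretch library 4 was the highest of all 7 and the other 3 stretch libraries were the lowest. The group means were 25.4 ± 10.6 CPM (SD, n = 3) and 22.8 ± 26.2 CPM (SD, n = 4). Between the groups the log2 fold change was -0.19 (95% interval -1.71 to 1.34, adjusted p 0.891 by edgeR), an interval wide enough to hold more than a 2-fold difference either way.

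Without stretch library 4 the log2 fold change of NFKB2 was -1.41, with an adjusted p of 0.110 by edgeR, and without stretch library 5, 6 or 7 it was 0.10, 0.03 and 0.08. NFKB2 passed on the doxorubicin side in 2 alternatives. These were limma-voom with library quality weights (-1.15, adjusted p 0.0363) and the analysis without doxorubicin libraries 1 and 2 and stretch library 4 (-1.92, adjusted p 3.86e-05 by edgeR). In the latter a single doxorubicin library was set against 3 stretch libraries, and it was assumed to vary as they did. The adjusted p over the 18 alternatives ran from 3.86e-05 to 0.988.

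**Figure D2:**
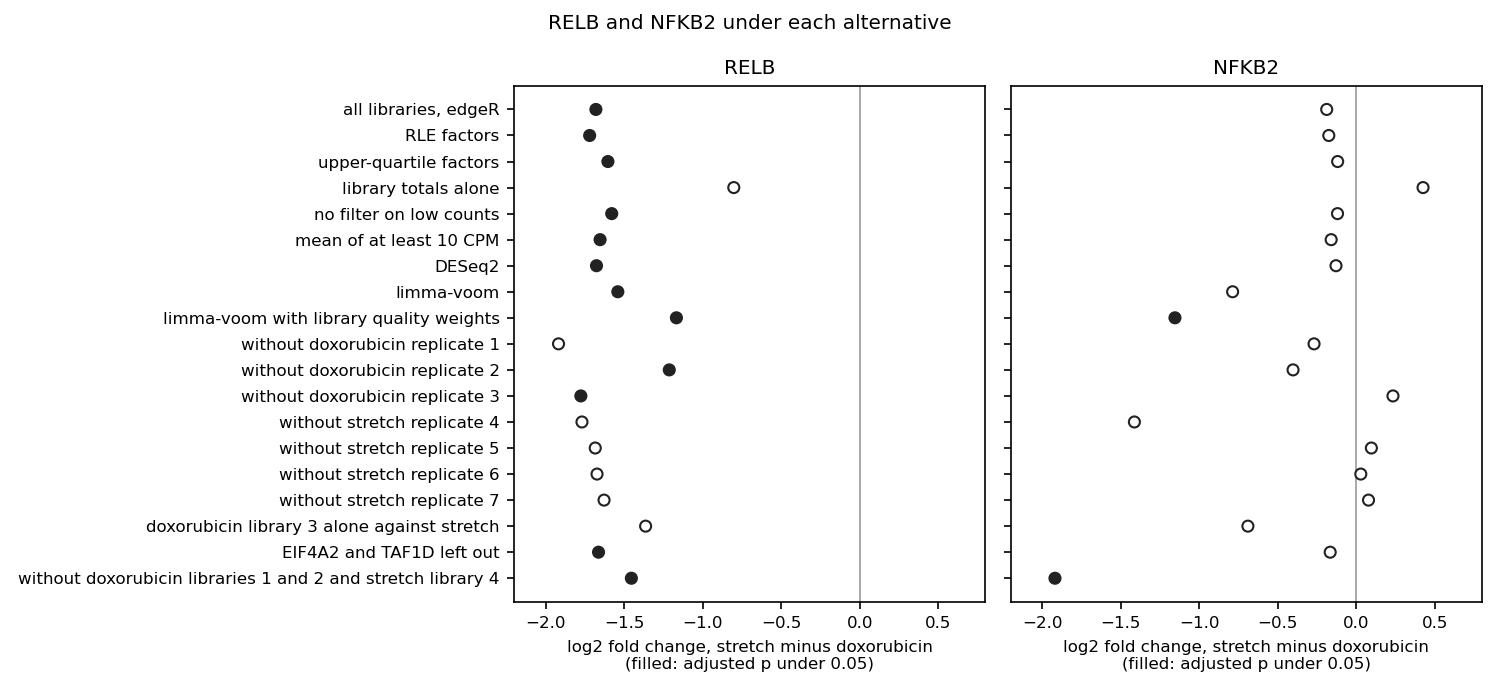
Log2 fold change of RELB (left) and NFKB2 (right), stretch minus doxorubicin, in the analysis of all libraries (top) and under each of 18 alternatives, filled where the adjusted p was under 0.05. RELB stays between -1.92 and -0.80, and NFKB2 runs from -1.92 to 0.42.

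The inhibitors that hold NF-kB in the cytoplasm did not pass. NFKBIA (chromosome 14, 35401511 to 35404749) stood at 87.4, 162 and 62.9 CPM after doxorubicin and at 125, 82.6, 74.7 and 68.6 CPM after stretch. Doxorubicin library 2 and stretch library 4 were the 2 highest, and the groups overlapped. On the log2 scale the difference was -0.24 (95% interval -1.07 to 0.60, adjusted p 0.734 by edgeR). It turned to 0.23 without doxorubicin library 2 and to 0.49 with doxorubicin library 3 alone. NFKBIE (chromosome 6, 44258166 to 44265788) had low counts, at 13, 9 and 28 after doxorubicin and 53, 28, 31 and 33 after stretch. In CPM these were 5.16, 7.78 and 5.29 against 7.08, 2.996, 3.35 and 3.55, so that stretch library 4 lay within the doxorubicin range and the other 3 stretch libraries below it. Its log2 fold change was -0.47 (95% interval -1.46 to 0.51, adjusted p 0.539 by edgeR), and -0.83 without stretch library 4 (adjusted p 0.277 by edgeR).

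NFKBIZ (chromosome 3, 101827991 to 101861022) codes IkB zeta, a nuclear member of the inhibitor family that binds NF-kB on DNA and helps to switch on a subset of its targets. It stood at 195, 88.2 and 363 CPM after doxorubicin and at 315, 125, 133 and 81.3 CPM after stretch. Doxorubicin library 3 and stretch library 4 were the 2 highest. Its difference was -0.40 on the log2 scale (95% interval -1.59 to 0.78, adjusted p 0.674 by edgeR). It was 0.23 without doxorubicin library 3, and -1.67 without doxorubicin libraries 1 and 2 and stretch library 4. That last setting was chosen after seeing the data. It left only doxorubicin library 3, the highest in NFKBIZ, and took out the highest stretch library. Of its 18 alternatives that setting was the only 1 in which NFKBIZ passed, and the highest adjusted p was 0.933 by edgeR.

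TNFAIP3 (chromosome 6, 137867188 to 137883312) codes A20, which edits ubiquitin chains and dampens signalling from receptors to the IkB kinase. It was weakly expressed, at 5.56, 3.46 and 6.43 CPM after doxorubicin and 11.6, 4.49, 3.89 and 5.27 CPM after stretch. The level in doxorubicin library 2 rests on 4 counts, where a level of 3 counts corresponds to 2.59 CPM. Stretch library 4 was the highest of all 7 and the other 6 lay in 1 range. Its log2 fold change was 0.22 (95% interval -0.85 to 1.29, adjusted p 0.816 by edgeR), and -0.25 without stretch library 4.

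BIRC3 (chromosome 11, 102317450 to 102339403) codes cIAP2, a ubiquitin ligase of the TNF receptor complex. It stood at 21.4, 24.2 and 19.7 CPM after doxorubicin and at 13.8, 17.8, 12.9 and 12.9 CPM after stretch. All 3 doxorubicin libraries lay above all 4 stretch libraries, with the smallest relative spread after doxorubicin of any member. The means were 21.8 ± 2.29 CPM (SD, n = 3) and 14.3 ± 2.33 CPM (SD, n = 4), a 1.51-fold difference that did not pass (log2 fold change -0.59, 95% interval -1.24 to 0.06, adjusted p 0.250 by edgeR). Leaving out 1 library at a time gave -0.72 to -0.51, and doxorubicin library 3 alone -0.44. BIRC3 and RELB were the 2 of 10 members whose groups did not overlap, and 21.4% of all genes tested did not overlap, 9.88% with doxorubicin higher.

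**Figure D3:**
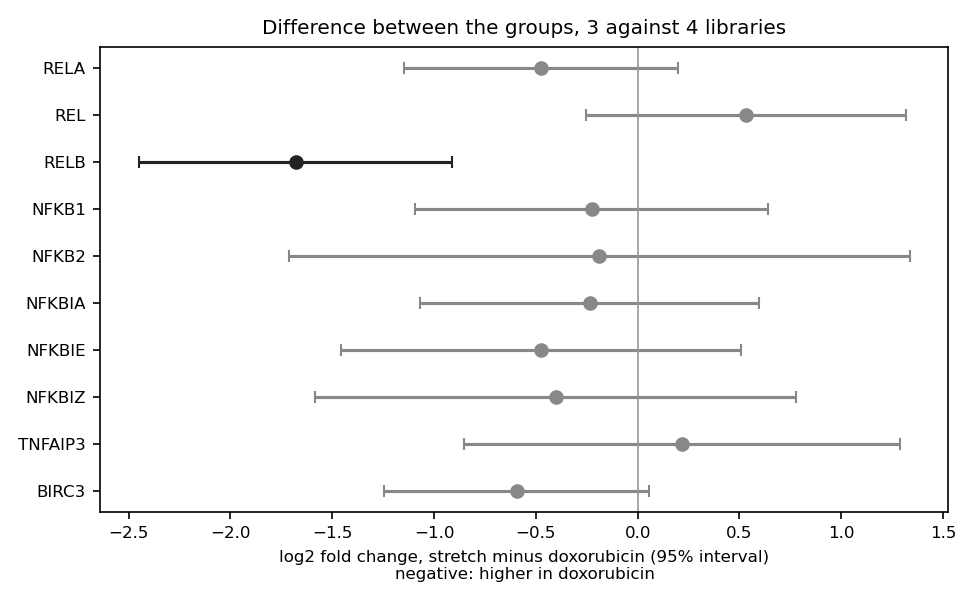
Log2 fold change of each member, stretch minus doxorubicin, with its 95% interval from edgeR's quasi-likelihood fit (3 against 4 libraries). RELB, in black, passed an adjusted p of 0.05, and the intervals of the other 9, in grey, include 0.

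Over the 10 members the median log2 fold change was -0.32, with 8 on the doxorubicin side, beside a median of 0.02 and 48.8% on that side over all genes tested. With doxorubicin library 3 alone the median of the members was -0.17, and without stretch library 4 it was -0.52. Scaling by library totals alone moved the median of all genes by 0.69 toward stretch and turned the sign of 7 members. Relative to the median of all genes in that setting, RELB lay at -1.51, REL at 0.40 and the 8 members on the doxorubicin side with TMM scaling were below that median too, NFKBIA by less than 0.01.

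A ratio of 2 genes within a library does not depend on how libraries are scaled, so each member was also set against RELA. The log2 ratio of RELB to RELA counts was -1.03, 0.35 and -0.01 after doxorubicin and -0.93, -1.60, -1.03 and -1.81 after stretch, in library order. Doxorubicin libraries 2 and 3 were above every stretch library, and library 1 lay within their range. The difference in means was -1.12 (exact permutation test, two-sided, p = 0.0571, n = 3 and 4, and 0.514 with Benjamini-Hochberg adjustment over the 9 ratios). The smallest p that the 35 splits of these libraries can give is 0.0286. The log2 ratio of REL to RELA went the other way, with means of -1.62 ± 0.95 (SD, n = 3) and -0.54 ± 0.64 (SD, n = 4), and exact permutation p = 0.143. For the other 7 ratios the differences lay between -0.18 and 0.61, with exact permutation p from 0.343 to 0.857.

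Stretch library 4 was the highest of the stretch libraries in 6 of the 10 members, beside 33.4% of all genes tested. It exceeded the mean of stretch libraries 5 to 7 by 6.39 times in NFKB2, 2.78 times in NFKBIZ, 2.55 times in TNFAIP3, 2.14 times in NFKBIE, 1.66 times in NFKBIA and 1.24 times in RELB. In REL, BIRC3, NFKB1 and RELA the ratios were 1.07, 0.95, 0.85 and 0.84. Thus 4 members were more than 2 times higher in library 4 than in the mean of the others, beside 5.50% of all genes tested. By Dixon's gap test library 4 stood apart on the high side in 2 members, NFKB2 and NFKBIE, beside 3.49% of all genes tested, and 7.56% of all genes had some stretch library apart. The 4 members over 2 times are a precursor and 3 inhibitors or feedback regulators, and no gene of the activating subunits was among them. In NFKB2, NFKBIZ and TNFAIP3 doxorubicin library 3 was also the highest of its own group, a pairing found in 20.1% of all genes tested. The total count of library 4 was 5636494, the lowest of the stretch libraries, and its share of rows at 0, 4.41%, lay within their range. The part of depth in these ratios was not tested.

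**Figure D4:**
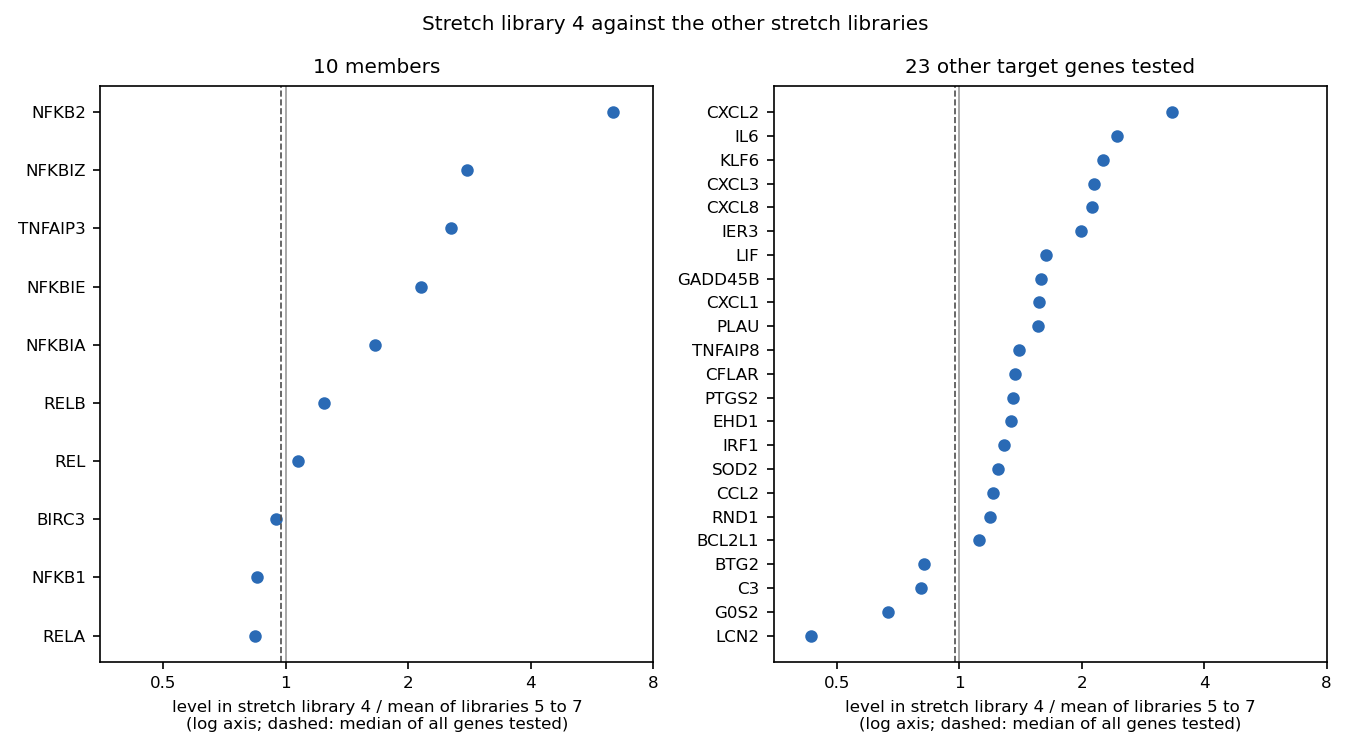
Level in stretch library 4 divided by the mean of stretch libraries 5 to 7 (log axis) for the 10 members (left) and the 23 other target genes tested (right); the dashed line is the median over all genes tested, 0.98. NFKB2, NFKBIZ, TNFAIP3 and NFKBIE lie above 2, and 19 of the 23 targets lie above 1.

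The promoters of these members are printed because NFKB2, NFKBIZ, TNFAIP3 and NFKBIA were high together in stretch library 4, and those of NFKB1, REL, BIRC3 and RELA because these were not. They are RefSeq promoters on build GRCh38.p14, running from 250 bases before to 50 bases after an annotated start site, 5′ to 3′ on the strand of the gene. Capitals mark matches to the canonical kB decamer (3 guanines, a purine, 2 free bases, 2 pyrimidines and 2 cytosines), searched on both strands, with matches that share bases counted as 1 stretch. The table held 13 promoters for 8 of the 10 members, and RELB and NFKBIE were not matched in it. Those of NFKB2 at chr10:102393860-102394159, NFKB1 at chr4:102501684-102501983 and RELA at chr11:65663808-65664107, all without a match, are not printed. Nor is another promoter of NFKBIZ, at chr3:101849264-101849563, which held the match GGGGTTTCCC.
NFKB2, chr10:102394328-102394627, plus strand: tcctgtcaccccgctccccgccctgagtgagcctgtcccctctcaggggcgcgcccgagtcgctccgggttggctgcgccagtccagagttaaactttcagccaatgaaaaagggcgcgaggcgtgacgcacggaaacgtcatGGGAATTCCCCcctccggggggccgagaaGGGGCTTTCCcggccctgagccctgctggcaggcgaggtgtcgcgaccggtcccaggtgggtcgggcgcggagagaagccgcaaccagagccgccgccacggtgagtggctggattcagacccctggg
NFKB2, chr10:102395455-102395754, plus strand: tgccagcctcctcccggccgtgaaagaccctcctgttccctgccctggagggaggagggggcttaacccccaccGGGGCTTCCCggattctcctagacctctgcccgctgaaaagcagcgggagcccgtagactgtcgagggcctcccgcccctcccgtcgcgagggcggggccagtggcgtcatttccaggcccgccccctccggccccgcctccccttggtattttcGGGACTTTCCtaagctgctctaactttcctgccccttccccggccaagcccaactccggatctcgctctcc
NFKBIA, chr14:35404700-35404999, minus strand: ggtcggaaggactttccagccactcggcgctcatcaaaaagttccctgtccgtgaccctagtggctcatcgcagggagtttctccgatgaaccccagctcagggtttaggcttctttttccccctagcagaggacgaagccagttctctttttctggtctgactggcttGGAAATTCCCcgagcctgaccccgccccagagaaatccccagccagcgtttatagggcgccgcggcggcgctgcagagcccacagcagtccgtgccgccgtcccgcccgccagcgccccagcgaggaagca
NFKBIZ, chr3:101827740-101828039, plus strand: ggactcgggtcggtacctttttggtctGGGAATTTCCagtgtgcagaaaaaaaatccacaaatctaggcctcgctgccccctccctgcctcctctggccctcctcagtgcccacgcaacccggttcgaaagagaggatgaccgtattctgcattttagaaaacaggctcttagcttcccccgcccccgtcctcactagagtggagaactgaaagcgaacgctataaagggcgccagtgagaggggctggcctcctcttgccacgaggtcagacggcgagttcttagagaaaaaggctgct
TNFAIP3, chr6:137867009-137867308, plus strand: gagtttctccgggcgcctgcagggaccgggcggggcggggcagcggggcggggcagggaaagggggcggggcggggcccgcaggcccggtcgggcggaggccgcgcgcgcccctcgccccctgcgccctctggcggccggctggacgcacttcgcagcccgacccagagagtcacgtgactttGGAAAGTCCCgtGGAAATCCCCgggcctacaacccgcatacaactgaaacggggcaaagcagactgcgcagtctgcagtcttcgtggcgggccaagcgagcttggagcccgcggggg
BIRC3, chr11:102317234-102317533, plus strand: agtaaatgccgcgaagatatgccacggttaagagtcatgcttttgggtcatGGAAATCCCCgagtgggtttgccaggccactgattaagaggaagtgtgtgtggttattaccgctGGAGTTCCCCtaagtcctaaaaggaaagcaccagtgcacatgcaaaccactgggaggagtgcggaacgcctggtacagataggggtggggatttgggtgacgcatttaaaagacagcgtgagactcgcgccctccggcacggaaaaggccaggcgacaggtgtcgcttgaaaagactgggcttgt
NFKB1, chr4:102501109-102501408, plus strand: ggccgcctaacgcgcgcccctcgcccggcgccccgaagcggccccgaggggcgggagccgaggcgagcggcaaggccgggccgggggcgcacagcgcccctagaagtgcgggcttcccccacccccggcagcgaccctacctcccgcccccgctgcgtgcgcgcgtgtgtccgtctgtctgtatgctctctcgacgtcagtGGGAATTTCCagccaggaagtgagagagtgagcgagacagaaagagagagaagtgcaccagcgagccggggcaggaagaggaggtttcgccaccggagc
REL, chr2:60881324-60881623, plus strand: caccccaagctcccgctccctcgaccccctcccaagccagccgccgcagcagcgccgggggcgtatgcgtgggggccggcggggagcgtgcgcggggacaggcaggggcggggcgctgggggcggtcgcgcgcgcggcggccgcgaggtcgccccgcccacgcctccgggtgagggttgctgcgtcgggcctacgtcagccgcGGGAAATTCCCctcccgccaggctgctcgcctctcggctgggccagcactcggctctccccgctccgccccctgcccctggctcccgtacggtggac
RELA, chr11:65662867-65663166, minus strand: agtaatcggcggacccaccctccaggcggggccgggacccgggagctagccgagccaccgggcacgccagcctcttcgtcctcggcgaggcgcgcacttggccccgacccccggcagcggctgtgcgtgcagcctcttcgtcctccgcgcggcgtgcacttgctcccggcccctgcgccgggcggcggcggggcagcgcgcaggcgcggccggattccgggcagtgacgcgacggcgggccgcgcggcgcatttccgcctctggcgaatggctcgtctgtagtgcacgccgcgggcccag

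A match was found in 9 of the members' 13 promoters (69.2%) and in 11.3% of all 35116 promoters of this length. The share was 13.25% for promoters of genes tested and 27.6% for those of the other NF-kB target genes tested. Several members were chosen as regulators that are themselves targets of NF-kB, so the share of the members is no independent result. In these windows 2 of the 3 NFKB2 promoters held 2 stretches each, as did the TNFAIP3 and BIRC3 promoters, beside 0.994% of all promoters with 2 or more. The nearest to a start site was GGGACTTTCC in NFKB2, from position -21 to -12 counted from the start site. NFKBIA held GGAAATTCCC at -81 to -72 and TNFAIP3 held GGAAAGTCCC at -67 to -58 and GGAAATCCCC at -55 to -46, all 3 on the opposite strand. Both RELA promoters were without a match. Matches also stood in genes that were not raised in stretch library 4. NFKB1, with GGGAATTTCC at -49 to -40, REL, with a stretch at -47 to -37, and BIRC3, with 2 stretches, had ratios of 0.85, 1.07 and 0.95 to the mean of the other stretch libraries. A match describes the letters in the window and does not show binding.

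Genes that act upstream were described from lists of ligands, receptors, adaptors and kinases. Among the ligands, 5 of the 7 analysed were tested and none passed by edgeR (2 at an unadjusted p under 0.05, median -0.61), with 0 by DESeq2, 0 by limma-voom and 2 by limma-voom with quality weights. Over all genes these tools called 10%, 1.66% and 47.2%, against which such counts are to be read here and below. The 10% is of 13112 genes kept by the filter of DESeq2, whereas its counts per list cover only genes that edgeR also tested. Of 11220 such genes DESeq2 called 801 on the doxorubicin side and 402 on the stretch side. TNFSF10, the death ligand TRAIL, had a log2 fold change of -1.23 and TNFSF14, or LIGHT, of -1.65, with adjusted p 0.128 and 0.199 by edgeR. TNFSF14 rested on doxorubicin library 3, with counts of 12, 0 and 99 after doxorubicin, and its log2 fold change was -0.04 without that library and -2.71 with it alone (adjusted p 0.0133 by edgeR). TNF, LTA, LTB and IL1A were not analysed here. Of 14 tested receptors 1 passed, higher after doxorubicin (median of the list 0.07). DESeq2 called 2 receptors on the doxorubicin side and 1 on the stretch side, limma-voom 1 and 0, and limma-voom with quality weights 4 and 4. TNFRSF12A, the receptor of the cytokine TWEAK, which can feed the alternative route, stood at 111, 99.4 and 94.7 CPM after doxorubicin and at 47.0, 21.7, 25.4 and 26.5 CPM after stretch. All doxorubicin libraries lay above all stretch libraries, and stretch library 4 was the highest of its group. The log2 fold change was -1.76 (SE 0.33, adjusted p 0.0255 by edgeR). Leaving out doxorubicin library 1 or 1 of stretch libraries 5 to 7, or using doxorubicin library 3 alone, lost the call (log2 fold changes -1.70 to -1.63), as did library totals alone (-1.001), and over 18 alternatives the adjusted p ran from 3.32e-07 to 0.203. TNFRSF21, another receptor of the TNF family, stood at 144, 306 and 54.8 CPM after doxorubicin and at 37.0 to 52.5 CPM after stretch, with a log2 fold change of -1.84 and an adjusted p of 0.0657 by edgeR. It was -1.08 without doxorubicin library 2, -0.22 with library 3 alone and -2.23 without library 3, where it passed (adjusted p 0.000795 by edgeR).

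Of 22 tested adaptors and ubiquitin ligases 1 passed, higher after doxorubicin, and the list's median was -0.31 with 16 on that side. DESeq2 called 4 of them on the doxorubicin side and 0 on the stretch side, limma-voom 0 and 0, and limma-voom with quality weights 12 and 2. IRAK1, a kinase that relays signals of interleukin-1 and Toll-like receptors, stood at 52.8, 92.5 and 47.3 CPM after doxorubicin and at 19.6, 27.9, 15.0 and 25.9 CPM after stretch. The groups did not overlap, and the log2 fold change was -1.52 with an adjusted p of 0.0494 by edgeR. This call was at the threshold, and 4 of 18 alternatives kept it, the adjusted p running from 0.000349 to 0.254. TRAF3, which keeps the alternative route in check, stood at 79.5 ± 12.2 CPM (SD, n = 3) against 38.1 ± 6.08 CPM (SD, n = 4), with a log2 fold change of -1.05 and an adjusted p of 0.0657 by edgeR. TRAF2 and MAP3K14, which act with TRAF3 there, were not analysed here. Other genes of that route, named after their values were seen, did not pass and had groups that overlapped. The log2 fold change was -0.61 for the kinase CHUK, -0.27 for the receptor LTBR and -0.01 for the ubiquitin ligase BIRC2 (adjusted p 0.391, 0.713 and 0.983 by edgeR).

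Of 8 tested genes at the level of the IkB kinases none passed by edgeR (2 at an unadjusted p under 0.05, median -0.17), with 1 by DESeq2, 0 by limma-voom and 3 with quality weights. MAP3K8, a kinase bound by p105, stood at 48.1 ± 15.9 CPM (SD, n = 3) against 15.9 ± 7.27 CPM (SD, n = 4), with an adjusted p of 0.0600 by edgeR. IKBKB, the kinase that marks IkB alpha, stood at 25.3 ± 5.36 CPM (SD, n = 3) against 44.5 ± 7.07 CPM (SD, n = 4) with stretch higher, and an adjusted p of 0.143 by edgeR. Both genes had groups that did not overlap. Of 15 tested genes among the other inhibitors none passed by edgeR (3 at an unadjusted p under 0.05, median 0.24), with 2 by DESeq2, 0 by limma-voom and 7 with quality weights. TNIP1, a partner of A20, had a log2 fold change of -1.13 and BCL3, a nuclear IkB protein that binds p50 and p52, one of 1.33, with adjusted p 0.0657 and 0.0809 by edgeR. The groups of neither overlapped.

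Of 23 tested target genes outside the 10 members 3 passed, all higher after doxorubicin, and 16 lay on that side (median -0.63). Of 22 targets with a DESeq2 value, DESeq2 called 6 on the doxorubicin side and 1 on the stretch side. Of all 23, limma-voom called 3 and 0, and limma-voom with quality weights 12 and 3. Groups did not overlap in 8 targets higher after doxorubicin and 1 higher after stretch, beside 9.88% and 11.5% of all genes tested. CCL2, a monocyte attractant, had a log2 fold change of -2.54 and LCN2, the iron-binding protein lipocalin 2, of -3.09, with adjusted p 0.00279 and 0.0109 by edgeR. LCN2 stood at 832, 542 and 347 CPM after doxorubicin and at 33.8, 77.6, 86.9 and 70.4 CPM after stretch, so stretch library 4 was the lowest of all 7. IL6, the cytokine interleukin-6, had a log2 fold change of -3.17 and an adjusted p of 0.0147 by edgeR. It rested on low counts, 24, 11 and 76 after doxorubicin and 17, 10, 5 and 11 after stretch. In CPM these were 9.53, 9.51 and 14.4 against 2.27, 1.07, 0.54 and 1.18. A level of 3 counts corresponds to 2.59 CPM in doxorubicin library 2, above every stretch level of IL6. Leaving out doxorubicin library 1 or 1 of stretch libraries 5 to 7 ended the call of LCN2 and of IL6 (adjusted p 0.0537 to 0.0973 by edgeR, with log2 fold changes of -3.25 to -2.71 and -3.28 to -2.91) and not that of CCL2, and library totals alone ended all 3. Stretch library 4 was the highest stretch library in 19 of the 23 targets, and 5 were over 2 times the mean of the other 3. The shares over all genes tested were 33.4% and 5.50%. CXCL2, a neutrophil attractant and the first of these 5 targets, stood at 146 CPM in library 4 and at 41.8 to 45.4 CPM in libraries 5 to 7. CXCL8 stood at 91.3 CPM against 34.3 to 49.6 CPM. CXCL2 and CXCL8 were named after their values were seen.

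Genes that link DNA damage to NF-kB were tested because doxorubicin breaks DNA. Of 11 tested members none passed by edgeR (1 at an unadjusted p under 0.05, median 0.08), with 0 by DESeq2, 0 by limma-voom and 4 with quality weights. PPP1R13L, an inhibitor of RELA and p53, stood at 20.4 ± 1.41 CPM (SD, n = 3) against 11.4 ± 4.64 CPM (SD, n = 4) without overlap, and PARP1, which senses DNA breaks, at 55.0 ± 35.5 CPM (SD, n = 3) against 97.6 ± 11.4 CPM (SD, n = 4), with adjusted p 0.184 and 0.257 by edgeR. For PARP1 the log2 fold change of 0.80 became 1.47 without doxorubicin library 3 (adjusted p 0.00595 by edgeR) and 0.06 with that library alone. Stretch library 4 was the highest stretch library in 8 of the 11, beside 33.4% of all genes tested. Among them was PIDD1, an adaptor of the damage signal, at 54.1 CPM against 14.6 to 17.0 CPM. PIDD1 was named after its values were seen.

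Across the 6 upstream, inhibitor and damage lists and the targets together, 98 genes were tested and 5 passed, all on the doxorubicin side, beside 2.32% of all genes in either direction and 1.97% on that side. Without doxorubicin library 3, where 32.2% of all genes passed, 8 more of the genes named here did (TNFSF10, TNFRSF21, TRAF3, MAP3K8, TNIP1, IKBKB, BCL3 and PARP1, adjusted p 0.000795 to 0.0372 by edgeR). Among 7501 genes with a mean of at least 10 CPM, those whose level followed NFKBIA most closely over the 7 libraries were C8orf82, BSG and OGFOD3, with root mean square distances of 0.11, 0.13 and 0.14 between log2 levels centred on their means. Those nearest to NFKB2 were ARHGEF1, LMNTD2 and ENO2, at distances of 0.30, 0.30 and 0.32. ARHGEF1, an exchange factor for the GTPase RhoA, stood at 41.1 CPM in stretch library 4 and at 9.52 to 13.8 CPM in the other stretch libraries, as NFKB2 did. The libraries share their depth and scaling, so such likeness is a description only.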

How the data were processed

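Counts for 7 libraries were analysed. Per the labels' protocols, RNA was taken with Trizol and an Ion AmpliSeq transcriptome kit was used for the libraries. The kit amplifies a short stretch per gene, so a difference in level between genes need not be one in RNA amount. Sums over markers and ratios to RELA join different genes and are given for comparison between libraries. The labels name no molecular identifiers. The authors deposited 1 table of whole numbers, read as rounded estimated counts (expected counts) and not scaled. Per the submitters' processing notes, fastp 0.20.1, Salmon 1.9 and GRCh38 were used. Annotation and strand use: not given in the sources used here. Exons of REL, RELA and TNFAIP3 overlap a noncoding gene each in GENCODE 29, and their counts may hold its reads.

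Rows sharing a symbol (64 symbols) were summed, and Metazoa_SRP, which is no gene and took at most 0.00861% of a library, was left out. Genes kept by filterByExpr were scaled by TMM and tested with edgeR 4.0.16 (R 4.3.3, robust glmQLFit, glmQLFTest) with Benjamini-Hochberg adjustment and a threshold of 0.05. SE is the absolute log2 fold change over the square root of F. CPM uses TMM-scaled totals and log2 levels a prior count of 2. Ratios to RELA used a pseudocount of 0.5. No pair of libraries agreed within sampling noise (chi-square per degree of freedom at least 7.07). The procedure was tested on simulated counts with planted changes larger than that of RELB or any other member. That run gives no measure of how well changes of the members' size are found. Alternatives were other scalings and filters, DESeq2 1.42.0, limma 3.58.1 (voom, with and without library weights), EIF4A2 and TAF1D left out, and libraries left out.

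The members, lists and alternatives were chosen with earlier results of these data known. By rule all members were named, and so were the 3 genes nearest to NFKBIA and to NFKB2. From each of 7 lists up to 4 genes past the threshold were named, or the 2 with the lowest adjusted p. CHUK, LTBR, BIRC2, CXCL2, CXCL8, PIDD1, TNFRSF1A, TNFAIP2 and IL1B were named outside this rule.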

Additional observations from a re-analysis of the deposited data

Results flagged for a closer look

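Of 40 genes named above or in the observations that follow (the members, the genes of the lists and those most like NFKBIA or NFKB2), 10 had 1 stretch library apart from the other 3 by a gap, as a share of the group's whole range, above the 95% critical value of Dixon's test for 4 samples. Chance flags about 1 in 20 such groups, and 7.56% of all genes tested were flagged, 3.49% with stretch library 4 on the high side. Some of the 40 were named for their level in that library or their likeness to NFKB2, so the count is no independent result. Stretch library 4 was the high one in 8. Among the members NFKB2 stood at 62.1 CPM there, with a gap of 0.930 of the range, and NFKBIE at 7.08 CPM, with a gap of 0.864. TNFAIP3, at 0.821, was just under the critical value. PPP1R13L stood at 18.3 CPM in that library (gap 0.868), CXCL2 at 146 CPM (0.966) and PIDD1 at 54.1 CPM (0.939). Of the genes nearest to NFKB2, ARHGEF1 stood at 41.1 CPM (0.863), LMNTD2 at 36.8 CPM (0.970) and ENO2 at 185 CPM (0.903). BCL3 was high in stretch library 7, at 11.6 CPM (0.900), and TNFAIP2 in stretch library 6, at 32.6 CPM (0.997).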

How the results depend on the processing

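No paired analysis was possible because the groups share no replicate number. With all libraries 261 genes passed, and over the sets that leave out 1 library 12 to 3736 did; for the members, 1 became 0 to 2, and for the genes of the 7 other lists 5 became 1 to 38. The counts of all genes, members and list genes were 13, 0 and 0 with library totals alone, 99, 0 and 4 with doxorubicin library 3 alone, 5303, 3 and 53 with limma-voom and quality weights, and 2554, 3 and 36 without doxorubicin libraries 1 and 2 and stretch library 4 (chosen after seeing the data). DESeq2, with its own filter, called 1315 genes, 1 member and 18 of 111 list genes. A mean of at least 10 CPM left 143, 1 and 3, with fewer genes tested. The cause of the other changes was not tested. RELB kept its direction in 18 of 18 alternatives. Signs of members that had not passed turned in 25 of the 178 values of the members. With library totals alone the log2 fold changes became 0.67 for NFKB1, 0.42 for NFKB2, 0.34 for RELA, 0.71 for NFKBIA, 0.29 for NFKBIE, 0.093 for NFKBIZ and 0.17 for BIRC3. NFKB1 was 0.0085 with limma-voom, and TNFAIP3 -0.22 with quality weights. With doxorubicin library 3 alone NFKB1 was 0.57, NFKBIA 0.49 and TNFAIP3 -0.021. Without doxorubicin libraries 1 and 2 and stretch library 4, NFKB1 was 0.62, REL -0.026, RELA 0.043, NFKBIA 0.27 and TNFAIP3 -0.49. Over the sets that leave out 1 library the ranges were -0.51 to 0.26 for NFKB1, -1.41 to 0.23 for NFKB2, -0.46 to 0.23 for NFKBIA, -0.93 to 0.23 for NFKBIZ and -0.25 to 0.44 for TNFAIP3. Set against the mean of RELA, NFKB1 and REL, the difference in mean log2 ratio (stretch minus doxorubicin) became -0.16 for NFKBIA and -0.34 for NFKBIZ. Leaving out 1 library, this difference for ratios to RELA ran from -0.91 to 0.34 for NFKB2, -0.46 to 0.084 for NFKBIE and -0.50 to 0.82 for NFKBIZ. Depth limits NFKBIE and TNFAIP3, with 9 and 4 counts in doxorubicin library 2.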

Other observations

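TNFAIP2, a target of NF-kB on the list that did not pass the filter on low counts, was named after its values were seen. It stood at 83.0 CPM in doxorubicin library 1 and at 32.6 CPM in stretch library 6, and at 1.73 CPM or lower in each of the other 5 libraries. IL1B, the cytokine interleukin-1 beta, also did not pass that filter, and stood at 9.93 CPM in doxorubicin library 1, at 0.86 to 3.02 CPM in the other 2 libraries of that group, and at 0.80 to 1.29 CPM after stretch.

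TNFRSF1A, the main receptor of TNF, was also named after its values were seen. It stood at 15.9, 8.65 and 53.3 CPM after doxorubicin and at 73.7, 99.4, 138 and 116 CPM after stretch. All 4 stretch libraries lay above all 3 doxorubicin libraries, and the log2 fold change of 1.98 had an adjusted p of 0.0736 by edgeR.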
